A study of Mus musculus with 12 samples.

Results

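Blood-brain barrier endothelial genes were examined in the cortex of mice that had drunk ethanol and then abstained. The 10 genes were chosen by symbol, with earlier results of these data known. They are the tight junction genes Cldn5, Ocln and Tjp1 and the transport genes Slc2a1, Abcb1a and Mfsd2a. The others are the adhesion genes Pecam1 and Cdh5 and the receptor genes Flt1 and Tek. All 10 were among the 33024 gene symbols of the count table, and all 10 were among the 16059 that passed the filter on low counts. The samples were 12 cortex libraries of C57BL/6 mice from Arm #2 of the study, 7 from mice given water (Control, treatment labelled Vehicle) and 5 from mice given ethanol (EtOH). Mice of the EtOH group could choose ethanol at 20% (v/v) over water during 12 h dark sessions (2BC-DID), starting at 30 days of age and lasting 35 nights. Both groups were then kept for 14 days without ethanol and passed through behavioural tests before the brain was taken, after the circulation had been flushed with saline. No genetic alteration is named for either group, and the sex of the mice and any pooling of tissue are not given in the sources used here. P-values measure the spread between these 12 libraries.

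The blood-brain barrier is formed by the endothelial cells that line brain capillaries. Tight junctions seal the gaps between these cells, so that nutrients enter the brain through carriers in the membrane and many drugs are pumped back into the blood. Pericytes, the basement membrane, the endfeet of astrocytes and Wnt signals from brain cells keep the endothelium in this state. Cortex tissue as a whole was sequenced, so that fewer endothelial cells and less RNA per endothelial cell cannot be told apart. Several of the 10 genes are also used by other cells: the glucose carrier Slc2a1 is made by astrocytes, and the scaffold gene Tjp1 by many cell types.

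Between 31768079 and 42183031 counts were assigned to genes per mouse. Levels are given in CPM, a gene's counts relative to the size of its library, after TMM normalization, a scaling of library sizes that assumes most genes do not differ, and its factors lay between 0.982 and 1.02. At these depths 3 counts correspond to 0.0711 to 0.0944 CPM, and the lowest count of any of the 10 genes in any mouse was 142, for Ocln. The markers of excitatory cortical neurons Slc17a7 (1682 to 2213 CPM) and Camk2a (3088 to 4406 CPM) were high in all 12 mice, and the endothelial markers Cldn5, Pecam1, Cdh5, Flt1 and Tek were counted in all 12.

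Of the 10 barrier genes, Tjp1 was higher and Slc2a1 and Mfsd2a were lower in ethanol-administered than in water-administered mice, with changes of 24.2%, −21.0% and −23.4% in the fit. The other 7 genes, among them the endothelial identity genes Cldn5, Pecam1, Cdh5 and Tek, did not pass the test. A gene passed at an adjusted p under 0.05 in the quasi-likelihood test of edgeR, adjusted over all 16059 genes by the Benjamini-Hochberg method. By this rule 23.7% of all genes passed, 12.1% as higher and 11.6% as lower in EtOH mice, so that 3 of 10 barrier genes (1 higher, 2 lower) is close to the share among all genes. None of the 10 passed when a log2 fold change above 0.5 in size was also required, a rule that 8.29% of all genes met. DESeq2 and limma voom also gave 3 of 10 passing and 0 of 10 with that minimum, and with each of the 3 tools 3 of the 10 had an unadjusted p under 0.05 and 0 of these reached the minimum. The median log2 fold change of the 10 genes was −0.06, beside 0.00007 for all genes tested.

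**Figure D1:**
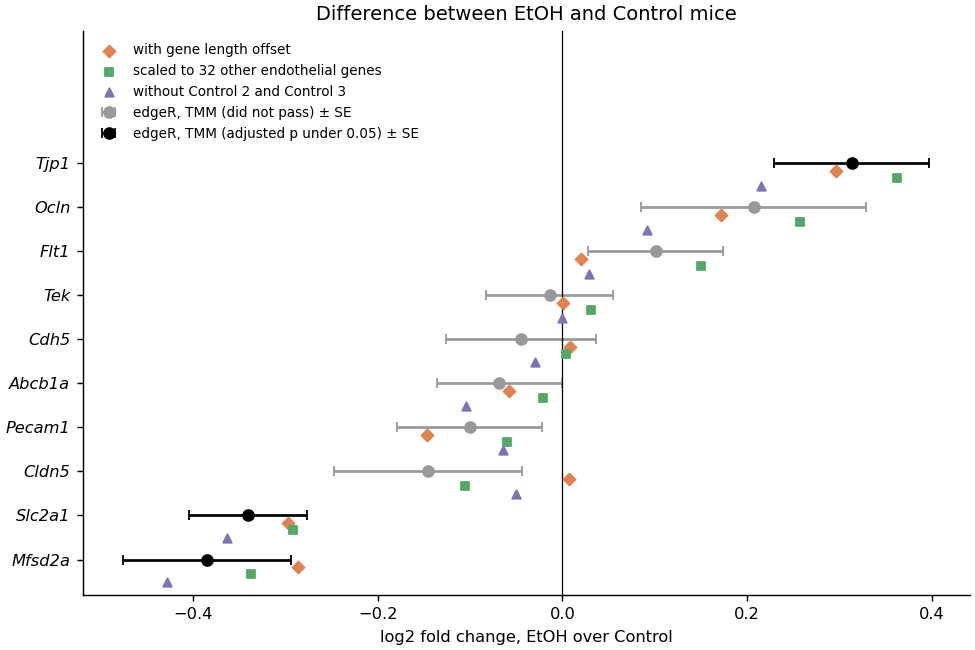
The log2 fold change of each barrier gene (EtOH over Control) is plotted with its standard error from the edgeR fit over 7 Control and 5 EtOH mice, in black where it passed, and smaller marks give the value with a gene length offset, with scaling to 32 other endothelial genes and without Control 2 and Control 3. Slc2a1 (−0.34) and Mfsd2a (−0.38) lie below 0 and Tjp1 (0.31) above it by more than the error, and the other 7 genes lie between −0.15 and 0.21.

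Per kilobase of exon, which allows genes to be compared with each other, the most abundant barrier transcript in Control mice was Slc2a1 (23.7 ± 1.68 CPM per kb, SD, n = 7). Cldn5 (18.03 ± 2.56), Tjp1 (13.1 ± 1.83) and Mfsd2a (8.80 ± 1.15) followed on the same scale. Flt1 (5.03 ± 0.550), Abcb1a (4.64 ± 0.427), Cdh5 (3.66 ± 0.353), Tek (2.46 ± 0.179) and Pecam1 (1.83 ± 0.130) lay lower, and Ocln was the lowest at 0.715 ± 0.118 CPM per kb. The ranges of Control mice overlapped between Slc2a1 and Cldn5, Cldn5 and Tjp1, Tjp1 and Mfsd2a, and Flt1 and Abcb1a, so that the order within these pairs is less firm. The other neighbours in the order did not overlap. With the length of the longest transcript in place of all exons, Mfsd2a and Flt1 changed places, as did Tek and Pecam1. In EtOH mice Slc2a1 was at 18.7 ± 1.60 CPM per kb (n = 5), closer to Tjp1 (16.3 ± 0.965) and Cldn5 (16.3 ± 2.26) than in Control mice.

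**Figure D2:**
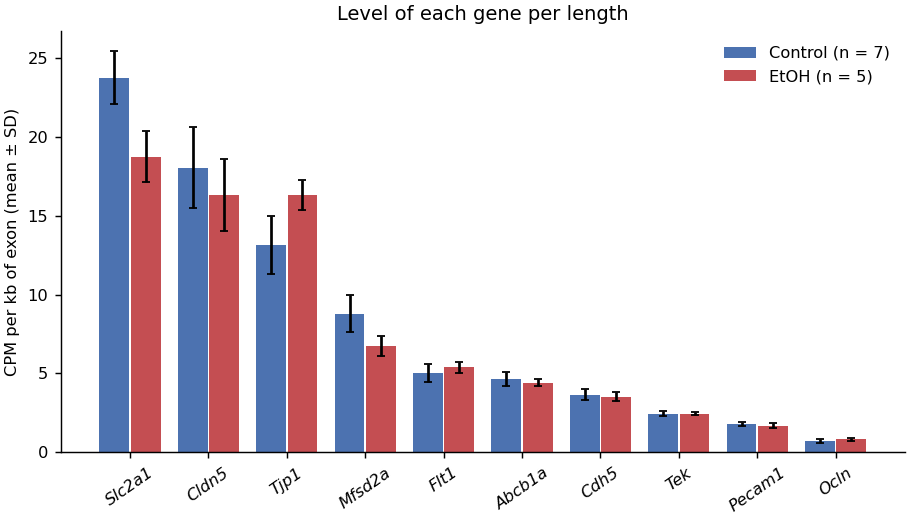
Bars give the mean level per kilobase of exon (CPM per kb, linear axis from 0) of each barrier gene in 7 Control and 5 EtOH mice, with error bars of 1 SD. The genes span from Ocln, at 0.715 CPM per kb on average in Control mice, to Slc2a1 at 23.7.

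Slc2a1, which encodes the glucose carrier GLUT1 that supplies the brain with glucose, lies on chromosome 4 (chr4:118965908-118996365, plus strand, GRCm39). In Control mice its level ran from 102 to 122 CPM with a median of 108, and in EtOH mice 1 to 5 it was 88.4, 78.1, 83.8, 91.2 and 98.0 CPM. Every EtOH mouse lay below every Control mouse. The mean fell from 111.3 ± 7.87 CPM (SD, n = 7) to 87.9 ± 7.52 CPM (n = 5), a change of −21.0% in the fit. Its log2 fold change was −0.34 (SE 0.06, 95% interval −0.47 to −0.21, adjusted p = 0.000952 with edgeR), the smallest p among the 10 genes.

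Mfsd2a encodes a carrier of lysophosphatidylcholine, which brings docosahexaenoic acid into the brain and is also known for keeping transcytosis across the endothelium low. The gene lies on the same chromosome (chr4:122840643-122855244, minus strand). Its level in Control mice ran from 19.9 to 28.8 CPM with a median of 23.5, and in EtOH mice 1 to 5 it was 17.3, 15.5, 18.4, 19.0 and 19.7 CPM. The groups did not overlap, although the highest EtOH mouse and the lowest Control mouse were close to each other. The mean fell from 23.5 ± 3.07 (n = 7) to 18.0 ± 1.66 CPM (n = 5), with a log2 fold change of −0.38 (SE 0.09, 95% interval −0.58 to −0.19, adjusted p = 0.00554 with edgeR).

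The third transport gene, Abcb1a (chr5:8710022-8798575, plus strand), encodes the P-glycoprotein pump that returns drugs to the blood. It ran from 25.2 to 32.7 CPM in Control mice with a median of 28.3. EtOH mice 1 to 5 had 29.2, 26.3, 26.9, 26.2 and 27.4 CPM, all within the range of the Control mice. Its log2 fold change of −0.07 (95% interval −0.21 to 0.07, adjusted p = 0.493 with edgeR) did not pass the test, and its interval does not reach the estimates of Slc2a1 or Mfsd2a. Abcb1a has a close paralog in Abcb1b, between which reads may have been split.

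Tjp1 encodes ZO-1, the scaffold that ties the tight junction to the actin cytoskeleton, and spans chr7:64945898-65177529 on the minus strand. Control mice ran from 84.6 to 119.4 CPM with a median of 109, and EtOH mice 1 to 5 had 135.8, 131.7, 119.8, 122.4 and 136.3 CPM. Every EtOH mouse lay above every Control mouse, the nearest being EtOH 3 and Control 5. The mean rose from 104.0 ± 14.5 (n = 7) to 129.2 ± 7.65 CPM (n = 5), with a log2 fold change of 0.31 (SE 0.08, 95% interval 0.14 to 0.49, adjusted p = 0.0124 with edgeR). The 3 genes that passed the test were also the 3 of 10 barrier genes whose groups did not overlap, and 9.81% of all genes tested did not overlap.

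**Figure D3:**
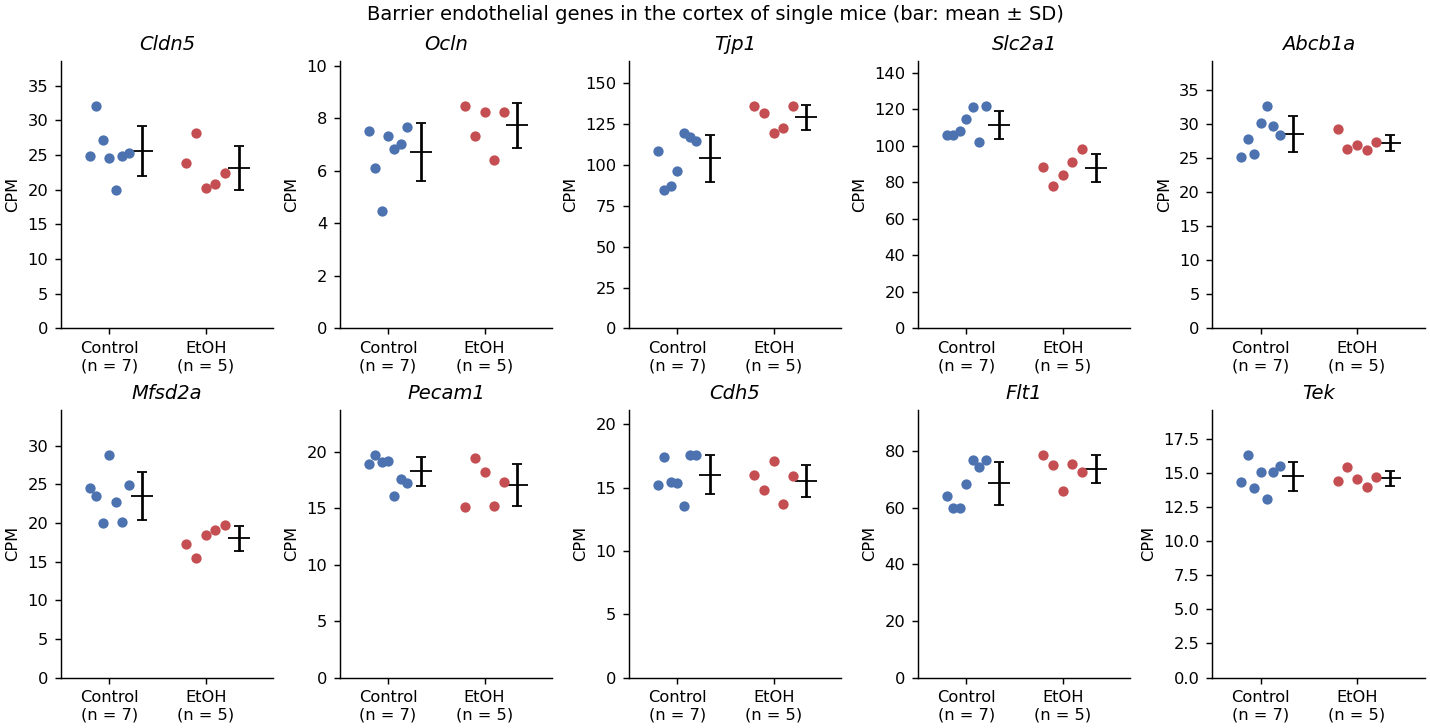
CPM of each barrier gene (axis from 0) is plotted in a panel of its own, with 1 point per mouse and the mean ± SD of the 7 Control and the 5 EtOH mice beside them. The groups are apart for Slc2a1, Mfsd2a and Tjp1 and overlap in the other 7 panels.

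Cldn5 encodes the main claudin of brain endothelial tight junctions and lies at chr16:18595597-18597012 on the plus strand. It ran from 19.9 to 32.1 CPM in Control mice with a median of 24.9, and was 23.8, 28.2, 20.2, 20.8 and 22.4 CPM in EtOH mice 1 to 5. All 5 EtOH mice lay within the range of the Control mice, and the log2 fold change of −0.15 (95% interval −0.36 to 0.07, adjusted p = 0.320 with edgeR) did not pass the test. With a single mouse left out, the Cldn5 value ran from −0.23 to −0.08. Ocln, which encodes the junction protein occludin (chr13:100630334-100689535, minus strand), ran from 4.48 to 7.66 CPM in Control mice with a median of 7.02. Its EtOH mice 1 to 5 had 8.48, 7.31, 8.23, 6.43 and 8.24 CPM, so that 3 of 5 lay above every Control mouse. The log2 fold change of Ocln was 0.21 (95% interval −0.05 to 0.46, adjusted p = 0.230 with edgeR), and a rise as large as that of Tjp1 lies inside this interval. The Ocln value was 0.13 without Control 3 and 0.09 without Control 2 and Control 3.

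The adhesion genes did not pass the test. Pecam1, which encodes the adhesion molecule CD31 (chr11:106543689-106641454, minus strand), ran from 16.1 to 19.7 CPM in Control mice with a median of 18.9. EtOH mice 1 to 5 had 15.1, 19.4, 18.2, 15.2 and 17.3 CPM, 2 of them below every Control mouse, and the log2 fold change was −0.10 (95% interval −0.27 to 0.07, adjusted p = 0.379 with edgeR). Cdh5, which encodes VE-cadherin of the endothelial adherens junction (chr8:104828231-104871143, plus strand), ran from 13.5 to 17.6 CPM in Control mice with a median of 15.5. Its EtOH mice 1 to 5 had 16.04, 14.8, 17.1, 13.7 and 15.9 CPM, all within that range, with a log2 fold change of −0.04 (95% interval −0.22 to 0.13, adjusted p = 0.727 with edgeR).

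Neither receptor gene passed the test. Flt1, which encodes the VEGF receptor VEGFR1 (chr5:147498414-147662826, minus strand), ran from 60.0 to 77.0 CPM in Control mice with a median of 68.3. EtOH mice 1 to 5 had 78.8, 75.3, 65.9, 75.6 and 72.7 CPM, 1 of them above every Control mouse, and the log2 fold change was 0.10 (95% interval −0.05 to 0.26, adjusted p = 0.338 with edgeR). Tek, which encodes the angiopoietin receptor TIE2 (chr4:94627291-94763224, plus strand), ran from 13.1 to 16.4 CPM in Control mice with a median of 15.1. Its EtOH mice 1 to 5 had 14.5, 15.5, 14.6, 13.96 and 14.7 CPM, all within that range, with a log2 fold change of −0.01 (95% interval −0.16 to 0.13, adjusted p = 0.908 with edgeR). The sign of the Cdh5 and Tek values flipped when libraries were scaled to a list of other endothelial genes, to 0.0035 and 0.03.

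Promoters of Slc2a1 and Tjp1 are shown, since the former fell and the latter rose. Each is the 250 bases before the most upstream Gencode exon that holds the gene's RefSeq start, 5′ to 3′ on the gene's strand, so that no base of that exon is included. Capitals mark letters of 4 short motifs searched on both strands: the ETS core CCGGAA, the hypoxia element ACGTG, the TCF/LEF motif CTTTGA and the GC box GGGCGG, which share no letters in these windows. The windows on GRCm39 are chr4:118965658-118965907 for Slc2a1 (plus strand) and chr7:65021036-65021285 for Tjp1 (minus strand). The Tjp1 window lies inside the span of the gene, between exons of longer transcripts that start further upstream.
Slc2a1: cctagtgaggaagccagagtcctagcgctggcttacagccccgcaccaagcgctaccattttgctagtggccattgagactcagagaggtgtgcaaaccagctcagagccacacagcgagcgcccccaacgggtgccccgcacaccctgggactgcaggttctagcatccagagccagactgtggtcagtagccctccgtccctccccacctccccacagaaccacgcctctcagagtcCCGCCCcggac
Tjp1: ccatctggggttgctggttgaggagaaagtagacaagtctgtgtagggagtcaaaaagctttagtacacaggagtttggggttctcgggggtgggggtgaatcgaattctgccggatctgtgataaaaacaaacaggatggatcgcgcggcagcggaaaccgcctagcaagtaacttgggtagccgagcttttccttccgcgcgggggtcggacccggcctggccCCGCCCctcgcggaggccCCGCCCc
The Slc2a1 window held 1 GC box and the Tjp1 window 2, and neither held a match to the other motifs. The comparison set was 32851 RefSeq mouse promoters, also of 250 bases, but taken directly before the RefSeq start and not before a Gencode exon. Of these, 16.6% held ACGTG, 13.8% CTTTGA, 32.7% the GC box and 12% the ETS core. The promoters of Pecam1 and Cdh5 were not matched in the RefSeq table, and those of the other barrier genes are not described. A match is a run of letters and was not tested as a site.

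Calls on the 3 genes held in most settings. When each of the 12 mice was left out in turn, 3 of 10 genes passed in each fit, and the log2 fold change ranged from −0.38 to −0.31 for Slc2a1, from −0.42 to −0.33 for Mfsd2a and from 0.27 to 0.34 for Tjp1. The choroid plexus, the epithelium that makes cerebrospinal fluid, lies next to brain tissue and its markers varied between EtOH mice. Its 7 tested markers, summed, were at 8.50 to 23.3 CPM in Control mice and at 124, 21.9, 1009, 283 and 12.5 CPM in EtOH mice 1 to 5. EtOH 2 and EtOH 5 were within the Control range of this sum, but not on Kl, a marker in the list that was at 8.09 CPM or more in every EtOH mouse and at most 3.71 CPM in Control mice. In EtOH 2 and EtOH 5, Slc2a1 (78.1 and 98.0 CPM) and Mfsd2a (15.5 and 19.7 CPM) were below, and Tjp1 (131.7 and 136.3 CPM) above, every Control mouse. With only these 2 EtOH mice kept, the log2 fold changes were −0.34 for Slc2a1 (adjusted p = 0.0398), −0.42 for Mfsd2a (adjusted p = 0.0777) and 0.36 for Tjp1 (adjusted p = 0.0750), so that 1 of 10 genes passed. The part of choroid plexus RNA in these values was not tested.

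Longer genes tended to be higher in EtOH mice. This was read from the 11690 genes with a known exon length and a mean level above 2 on the log2 CPM scale, in 5 classes of near equal size. Within each mouse, the median log2 deviation of the longest genes (the top 20% by length) minus that of the shortest 20% was −0.26 to 0.07 in Control mice and 0.05 to 0.15 in EtOH mice, with Control 2 (−0.26) and Control 3 (−0.23) the lowest. The median log2 fold change rose from −0.10 in the shortest class to 0.09 in the longest. Control 2 and Control 3 also had the lowest Tjp1 levels, 84.6 and 87.2 CPM, and Cldn5 was highest in Control 2. Mfsd2a and Cldn5 belong to length class 1, the shortest, Slc2a1 and Cdh5 to class 2, Tjp1, Abcb1a and Tek to class 3, Pecam1 and Ocln to class 4 and Flt1 to class 5. With an offset for gene length in each mouse, Slc2a1 stood at −0.30 (adjusted p = 0.00296), Mfsd2a at −0.29 (adjusted p = 0.0317) and Tjp1 at 0.30 (adjusted p = 0.0113), and Cldn5 moved from −0.15 to 0.0072. Without Control 2 and Control 3, Tjp1 stood at 0.22 (adjusted p = 0.0326), and what part gene length has in the differences was not tested.

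**Figure D4:**
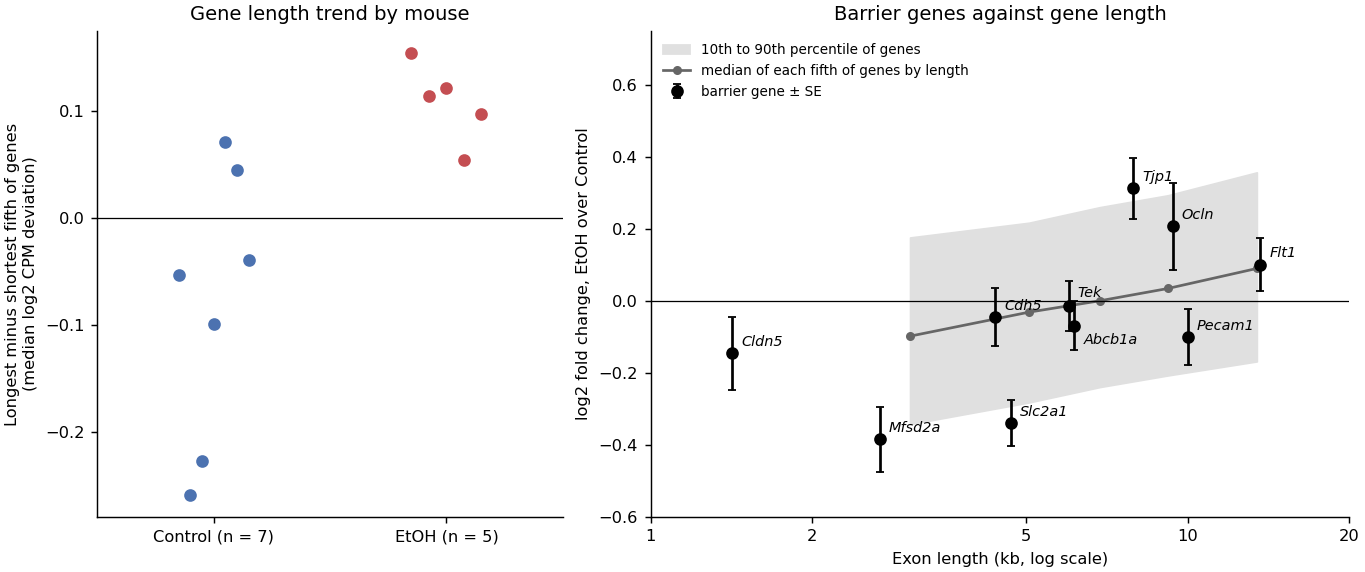
On the left, the gap between the longest and the shortest 20% of genes (median log2 CPM deviation) is plotted for each mouse, and on the right the log2 fold change of each barrier gene with its standard error against exon length in kb (log axis), over the median and the 10th to 90th percentile of the 11690 classed genes in 5 length classes. The gap reaches down to −0.26 in Control mice, and Slc2a1, Mfsd2a and Tjp1 lie farther from the median of genes of like length than Cdh5, Tek, Abcb1a and Flt1 do.

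Pairs of the 10 genes varied in either direction between mice of a group. With group means removed, 22 of their 45 pairs were positively correlated over the 12 mice, with a median Pearson r of −0.01. The highest values were 0.85 for Tjp1 with Flt1, 0.76 for Cldn5 with Tek and 0.71 for Cdh5 with Tek, and the lowest was −0.68 for Pecam1 with Flt1. The genes most like the mean of the 10, out of all others tested, were Agps (r = 0.92), Krit1 (0.88), Cep76 (0.87), Caap1 (0.86) and Srsf6 (0.86). These are descriptions over 12 libraries that share depth and length trends, and the top of many correlations is high by selection.

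Other genes of the vessel wall were described by lists of known members, whose counts are to be read against the 23.7% of all genes that passed (12.1% higher and 11.6% lower). Of 32 other endothelial identity genes, 2 were higher and 6 lower in EtOH mice, with a median log2 fold change of −0.05, and the 24 others did not pass the test. The share of 8 of 32 is near that over all genes and is not a result about the list. The lower genes by smallest p were Ly6c1, a surface protein of brain endothelium, from 35.2 ± 5.89 (n = 7) to 22.6 ± 2.35 CPM (n = 5, log2 fold change −0.64), Eng, a TGF-β co-receptor (−0.38), Ly6a (−0.47) and the adhesion receptor Adgrl4 (−0.26). All 6 lower genes passed in each of the 12 fits with a mouse left out. The higher genes, Cyyr1 (0.43) and Cd93 (0.34), passed in 7 and 6 of these 12 fits, with adjusted p up to 0.0800 and 0.118. The summed level of the list was 601 to 672 CPM in Control and 580 to 654 CPM in EtOH mice, so that the groups overlapped. Ablim1 (144 ± 13.0 CPM in Control mice, n = 7, log2 fold change 0.10) was its most abundant gene. It weighed most in this sum and in the scaling to the list.

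Among 14 other junction genes, 4 were higher and 1 was lower. Cldn1, a claudin that is scarce in brain endothelium and common in epithelia and meninges, rose from 1.28 ± 0.199 (n = 7) to 6.27 ± 2.08 CPM (n = 5, log2 fold change 2.29, SE 0.18, adjusted p = 1.2e-07 with edgeR), with every EtOH mouse above every Control mouse. Marveld2, which encodes tricellulin of junctions where 3 cells meet, rose by 0.85 on the log2 scale to 1.37 CPM, and Afdn, which links junctions to actin, by 0.26. Cgn (0.32) and Ctnnd1 (−0.38) passed in 5 and 3 of the 12 fits with a mouse left out, with adjusted p up to 0.0852 and 0.118. The median log2 fold change of the list was −0.01.

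Among 22 other barrier transporters, 4 were higher and 1 lower, with a median log2 fold change of 0.01. Slc38a3, a glutamine carrier shared with astrocytes, fell from 97.3 ± 7.89 (n = 7) to 73.0 ± 8.38 CPM (n = 5, log2 fold change −0.41, adjusted p = 0.000672 with edgeR), without overlap between the groups. Lrp1, a clearance receptor also made by neurons and glia, rose by 0.41 on the log2 scale. Abcb1b (0.42), the paralog of Abcb1a, lost its call without EtOH 1 (adjusted p = 0.0517) and fell to 0.28 with the gene length offset (adjusted p = 0.0988). Slc16a1 (0.23), the lactate carrier MCT1, lost its call without Control 4, EtOH 3 or EtOH 5 (adjusted p = 0.0564, 0.0706 and 0.0568).

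A list of VEGF and angiopoietin ligands and receptors, the family of Flt1 and Tek, with genes of the apelin and Notch pathways of vessel growth, showed 2 higher and 2 lower among 19 tested, with a median log2 fold change of 0.05. Both higher genes belong to the former and both lower genes, Apln and Notch4, to the latter. Nrp1, a VEGF co-receptor that neurons also use, rose from 16.5 ± 2.17 (n = 7) to 33.4 ± 4.77 CPM (n = 5, log2 fold change 1.02, SE 0.10, adjusted p = 1.09e-06 with edgeR). Angpt1, the ligand of TIE2, rose from 4.00 ± 0.562 to 7.31 ± 2.07 CPM (0.87), and Apln, the ligand apelin, fell by 0.57. Notch4 (−0.34) lost its call without EtOH 1 (adjusted p = 0.0632) or EtOH 2 (adjusted p = 0.0509). Of 20 genes of the Wnt pathway that maintains the barrier, 1 was higher and 3 were lower, with a median of −0.10. The transcription factor gene Tcf7 fell from 7.77 ± 1.38 to 4.52 ± 0.537 CPM (−0.78), and Nkd1 (−0.26), an inhibitor of the pathway, lost its call without EtOH 1 (adjusted p = 0.0555) or EtOH 3 (adjusted p = 0.0561). The co-receptor gene Lrp6 (0.17) passed in 1 of the 12 fits with a mouse left out.

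Genes of caveolae, of arteries and veins and of endothelial activation were few in number and mostly did not pass. Of 8 caveolae and transcytosis genes, Cav2 rose from 24.8 ± 2.31 (n = 7) to 35.7 ± 2.86 CPM (n = 5, 0.53) and Cavin3 fell by 0.51, with a median log2 fold change of −0.14. Of 10 arterial zonation genes 3 passed as lower, with a median of −0.27. All 10 had a negative value, as had 8028 of the 16059 genes tested, and the list includes Stmn2, by far its most abundant gene (317 CPM in Control mice, −0.05), which the neuron list also holds. Hey1, a Notch target, fell from 62.4 ± 5.98 to 48.2 ± 3.40 CPM (−0.37). Hey1 and Efnb2 (66.0 CPM in Control mice) stood above the endothelial genes Cdh5 (16.0 CPM) and Tek (14.8 CPM). The cells that made Hey1 and Efnb2 transcripts cannot be told apart in whole cortex. Bmx (−0.78) lost its call without EtOH 3 (adjusted p = 0.0530), and Efnb2 (−0.25) without EtOH 2 (adjusted p = 0.0631) or EtOH 5 (adjusted p = 0.0637). Of 9 venous genes, Nr2f2 rose from 12.04 ± 1.24 (n = 7) to 37.7 ± 18.1 CPM (n = 5, 1.65), a factor that interneurons also express, and the median was −0.19. Of 10 tested endothelial activation genes, Mt1 alone passed as lower (−0.37), which held in 1 of the 12 fits with a mouse left out, and 8 of 10 values were negative with a median of −0.24. Selp, a selectin of activated endothelium, was at 0 in 8 of 12 mice and Sele in 2 of 12.

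**Figure D5:**
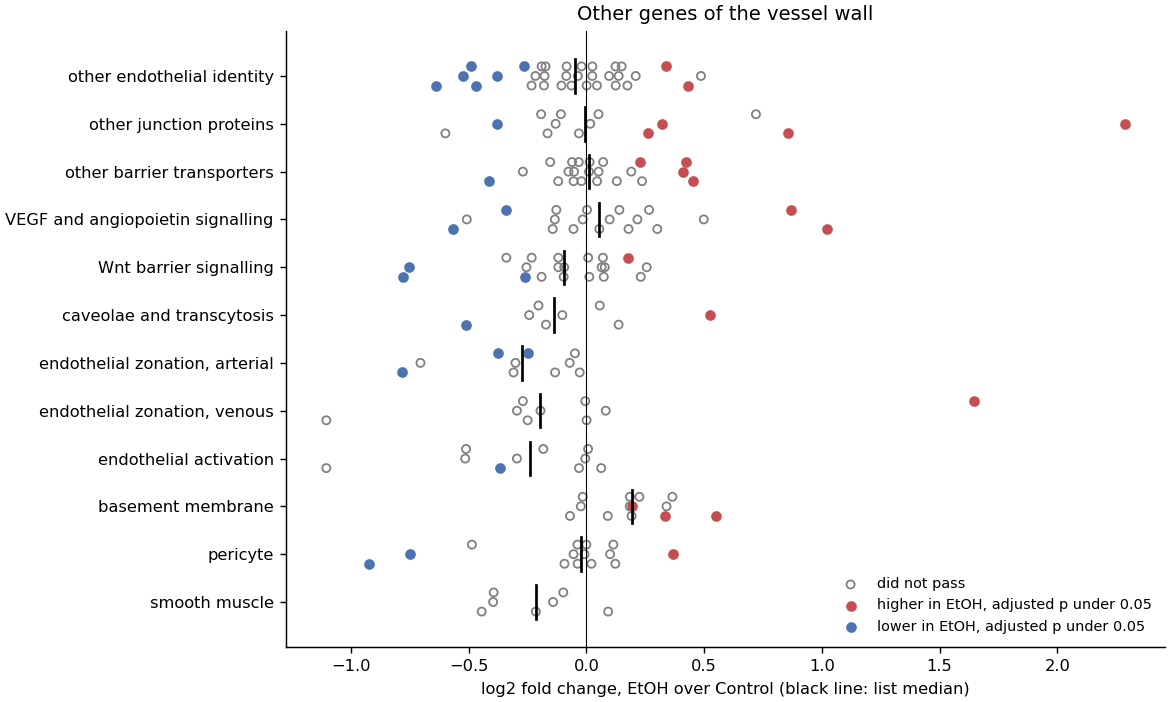
The log2 fold change of each gene (EtOH over Control) is plotted in rows by list of vessel wall genes, with genes that passed the test marked and the median of each list drawn. The medians lie between −0.27 in the arterial list and 0.19 in the basement membrane list.

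The wall around the endothelium was also read. Of 13 basement membrane genes 3 were higher and 0 lower, beside 12.1% higher and 11.6% lower among all genes. Of the 13 values 10 were positive, as were 8031 of the 16059 genes tested, with a median log2 fold change of 0.19. Lama4, the laminin chain of vessels, rose from 7.97 ± 0.995 (n = 7) to 11.7 ± 1.30 CPM (n = 5, 0.55) and Agrn, a heparan sulphate proteoglycan also made by neurons, by 0.33. Lamc1 (0.19) lost its call without Control 1, Control 4, EtOH 1 or EtOH 5 (adjusted p = 0.0535 to 0.0769). Of 14 pericyte genes 1 was higher and 2 were lower, with a median of −0.02 and a summed level of 266 to 299 CPM in Control and 272 to 298 CPM in EtOH mice. Cspg4, shared with oligodendrocyte precursors, rose by 0.37, Cox4i2 (−0.75) passed in 7 of the 12 fits with a mouse left out, and Ifitm1 (−0.92) lost its call without EtOH 1 (adjusted p = 0.0552). Of 7 smooth muscle genes 0 passed by edgeR, DESeq2 or limma voom, 2 had an unadjusted p under 0.05 by edgeR, and the median was −0.21.

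Without EtOH 1, EtOH 3 and EtOH 4, the mice with a summed choroid plexus signal above the Control range, calls on several of these vessel wall genes were lost. The log2 fold change of Angpt1 went from 0.87 to 0.40 (adjusted p = 0.236), that of Nkd1 from −0.26 to −0.17 (adjusted p = 0.268) and that of Ifitm1 from −0.92 to −0.57 (adjusted p = 0.372). Nr2f2 went from 1.65 to 0.84 and still passed (adjusted p = 0.00808). Adgrl4, Ly6a, Marveld2, Afdn, Abcb1b, Slc16a1, Lrp1, Apln, Cavin3, Agrn and Cspg4 also lost their calls with 2 EtOH mice left, with adjusted p from 0.0709 for Agrn to 0.271 for Slc16a1. Their log2 fold changes were then −0.21, −0.46, 0.65, 0.19, 0.48, 0.20, 0.39, −0.42, −0.34, 0.32 and 0.27, in the same order. Those of Ly6a, Lrp1 and Agrn stayed near the full fit and that of Abcb1b was larger. A test with 2 EtOH mice has less power, so that a lost call alone does not show a smaller difference. With the gene length offset, the value of Afdn went to 0.17 (adjusted p = 0.0288) and still passed, and those of Mt1 (−0.20, adjusted p = 0.201) and Lrp6 (0.08, adjusted p = 0.293) did not. Cd93 (0.27, adjusted p = 0.0835), Lamc1 (0.13, adjusted p = 0.109) and Cox4i2 (−0.58, adjusted p = 0.0743) also lost their calls with this offset.

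Markers of other cells and regions also moved with the groups. All 15 striatal genes were lower in EtOH mice (summed, 1741 to 3640 CPM in Control and 505 to 587 CPM in EtOH mice) and 8 of 14 hippocampal genes were higher (320 to 482 and 543 to 597 CPM). Of 12 genes each, 10 oligodendrocyte, 7 microglia and 6 neuron genes were lower, and 4 astrocyte genes were higher and 1 lower. Over all 16059 genes tested, 12.1% were higher and 11.6% lower in EtOH mice. The oligodendrocyte genes summed to 4688 to 6214 CPM in Control and 3140 to 5599 CPM in EtOH mice. Of 7 tested choroid plexus markers 5 were higher, and of 5 tested red cell genes 0 passed and 0 had an unadjusted p under 0.05 by edgeR, DESeq2 or limma voom. The part of these shifts in the values of Slc2a1, Mfsd2a and Tjp1 was not tested. Scaling to the other endothelial identity genes in place of TMM raised the share of calls that were higher in EtOH mice from 51.1% to 67.3% (2487 higher and 1210 lower), and under it the log2 fold changes were −0.29 for Slc2a1, −0.34 for Mfsd2a and 0.36 for Tjp1, all past the threshold.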

How the data were processed

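RNA from the cortex of 12 mice was sequenced by BGI. Per the methods and the submitters' processing notes, the authors checked reads with FastQC 0.11.9, aligned them with STAR to GRCm39 with Gencode release 28 and counted them with featureCounts. The authors deposited estimated counts per gene symbol without normalization (expected counts, 61 symbols not whole), and these were rounded. The strand and multi-mapping settings are not given in the sources used here, so that reads of antisense genes overlapping Ocln, Slc2a1, Abcb1a, Mfsd2a and Cdh5 (1.78% to 8.99% of exon length) cannot be told apart. All columns matched a mouse.

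Genes were filtered with filterByExpr and fitted with TMM factors and the quasi-likelihood test of edgeR, adjusted over all genes by the Benjamini-Hochberg method (R 4.3.3, edgeR 4.0.16). The standard error is the log2 fold change divided by the square root of F, and 95% intervals use the fit's degrees of freedom. Alternatives were DESeq2 1.42.0, limma 3.58.1 voom, RLE and upper quartile factors, scaling to endothelial genes, other filters, the replicate number as a block and each mouse left out. A gene length offset and fits without Control 2 and Control 3, without EtOH 1, EtOH 3 and EtOH 4, and without Control 5 and EtOH 1 were chosen after seeing the data. The fits were tested on simulated data.

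The members and lists were chosen with earlier results of these data known. Named genes are the 10 members, up to 4 genes with the smallest p per direction among those passing in each vessel wall list, and the 5 genes most correlated with the members' mean. Genes of the lists for other cell types and regions are given as counts, some items are not reported here, and a few list genes at 0 or outside the rule were named after their values were seen. Promoter bases, positions and exon lengths are from GRCm39 and Gencode M39, which is newer than the authors' annotation. Promoter starts and the comparison set of promoters are from RefSeq (table on GRCm38.p6), which matched 8 of 10 members, and their starts were placed on GRCm39 by exact match. Different mice differed by more than sampling noise. CPM floors cover counting error only.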

Additional observations from a re-analysis of the deposited data

Results flagged for a closer look

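Among 66 groups of values checked for a mouse far from the rest of its group (Dixon's test at 95%), 7 were found, where chance would give about 3.3. Ocln was lowest in Control 3, at 2.18 log2 CPM with the next Control mouse at 2.63. The summed level of the caveolae and transcytosis list was lowest in EtOH 4, at 7.22 on the log2 scale with the next at 7.35, and that of the basement membrane list was highest in the same mouse, at 9.31 with the next at 9.21. The endothelial activation list was lowest in Control 5, at 8.21 with the next at 8.52. The red cell list was highest in Control 6, at 7.00 with the next at 4.39. The total count was highest in Control 5 among the Control mice, at 40690226 with the next at 32356909, and in EtOH 1 among the EtOH mice, at 42183031 with the next at 33313165. Without Control 5 and EtOH 1, the 3 genes Slc2a1, Mfsd2a and Tjp1 still passed the test.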

How the results depend on the processing

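With DESeq2, limma voom, RLE or upper quartile factors, endothelial scaling, either filter, the length offset or any single mouse left out, 3 of the 10 genes passed, and 0 passed with a minimum log2 fold change of 0.5 or of 1. Without EtOH 1, EtOH 3 and EtOH 4, 1 of 10 passed, and 50 listed genes in place of 96 (77 to 113 under the others); only 2 EtOH mice were then left. Over all genes 3810 passed, 2536 without Control 2 and Control 3, 1326 without those 3 EtOH mice, and 3124 to 4672 with a single mouse left out. Signs reversed for genes that did not pass: Cldn5 (0.0072) with the length offset, Pecam1 (0.0023) without the 3 EtOH mice, Cdh5 with endothelial scaling (0.0035) and the length offset (0.0087), and Tek with endothelial scaling (0.031), the length offset (0.00030) and without the 3 EtOH mice (0.025), and from −0.049 to 0.012 with a mouse left out. F5, a choroid plexus marker, went to −0.56 without the 3 EtOH mice. The cause of these changes was not tested.

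Replicate numbers did not pair the mice: same-numbered mice correlated at −0.11 to 0.02 over 5 pairs. With the replicate number as a block, 3 of 10 genes passed, 3488 genes passed in all, Cdh5 turned to 0.013 and Tek to 0.011. No call on the 10 genes changed under the block. List genes near 1 CPM, such as Bmx and Marveld2, rest on few counts, down to 18 in a mouse.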

Other observations

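The 12 genes listed for perivascular fibroblasts and meninges, which lie outside the endothelium, gave 1 gene that passed the test. Dcn, which encodes the matrix proteoglycan decorin, was at 8.46 ± 1.31 CPM in Control mice (SD, n = 7) and 31.1 ± 17.1 CPM in EtOH mice (n = 5), a log2 fold change of 1.87, and the groups overlapped. The summed level of the 12 genes was 93.2 to 139 CPM in Control and 69.0 to 176 CPM in EtOH mice, with a median log2 fold change of −0.04. Kl, which encodes klotho and is made by the choroid plexus, rose from 2.98 ± 0.695 to 19.8 ± 16.4 CPM (2.72), with every EtOH mouse above every Control mouse. Without EtOH 1, EtOH 3 and EtOH 4, the log2 fold change of Dcn was 0.97 (adjusted p = 0.0113) and the log2 fold change of Kl was 1.495 (adjusted p = 0.000319).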
